A study of Mus musculus with 12 samples.

Results

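The array used for mouse inguinal fat carried 1104 probes whose names begin with humanlincRNA, out of 60915 probes outside the control spots. They were chosen by that name alone. The 1104 names held 557 distinct numbers from 2 to 2514. For 547 of these numbers there was a pair of probes, one ending in a plus and one in a minus sign, and the other 10 numbers had a single probe. The files do not say what the signs mean, whether a probe was drawn from a human transcript or from its mouse counterpart, or where in either genome it lies. None of the names or numbers matched the RefSeq gene table used here (0 matches), so the probes are named as the files name them, without sequence or position.

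Long intergenic noncoding RNAs (lincRNAs) are spliced transcripts from between protein-coding genes that are not translated. They are usually made at low levels and in few tissues. Many are poorly conserved in sequence, so a human lincRNA often has no easily recognised mouse counterpart even where the neighbouring genes are shared. In fat, some act in adipocyte differentiation and in the browning of white depots.

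The tissue was inguinal white adipose tissue of male BALB/c mice, 6 weeks old per the labels. The control group was 6 littermates given PBS vehicle, and the cachexia group was 6 mice inoculated under the skin of the flank with syngeneic colon-26 adenocarcinoma cells, a transplanted carcinoma line that makes its hosts waste. Tissue was taken on day 21. By the labels, each array was a separate mouse. The weight lost by each mouse is not given in the labels used here, and the description field of the cachexia samples also calls them littermate controls, against their titles. The labelled tissue could not be checked: of 15 probes named by an mRNA accession, 0 were among the 23 cell type markers listed for fat and for neighbouring tissues. Fewer cells of a type and less RNA per cell cannot be told apart in such bulk tissue.

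Some arrays stood apart. The 75th percentile of the processed signal was 86.7 to 229.2 on the controls, 204.3, 401.1 and 94.0 on cachexia 1, 2 and 4, and 25.4 to 27.5 on cachexia 3, 5 and 6. Cachexia 3, 5 and 6 also resembled one another more than any other arrays. Over 4396 probes with a signal of at least 200 on every array, the spread of the difference between 2 of these 3 arrays, after a trend with brightness was removed, was 0.14 to 0.21 (log2, SD), against 0.31 to 2.16 for the other 63 pairs. Over the 60 human lincRNA-named probes that were well above background on all 12 arrays, the plain SDs of the differences overlapped, at 0.35 to 0.48 and 0.41 to 2.14. The 3 arrays were averaged and counted as 1 replicate, which leaves 6 control and 4 cachexia replicates. Controls 2 and 3 were the closest of the other 63 pairs by both measures (0.31 and 0.41) and were kept as separate replicates. The file headers give 3 scan days: the first holds all 6 controls with cachexia 1, the second holds cachexia 3, 5 and 6, and the last holds cachexia 2 with cachexia 4. Within the first day, controls 2 and 3 share a scan time, and controls 1, 4, 5 and 6 share another with cachexia 1.

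Few of the human lincRNA-named probes gave a signal on every array that the scanner software called well above background. Of the 1104, 542 were below that call on all 12 arrays (49.1%), 190 were above it on 1 array, 183 on at least 6 arrays (16.6%) and 60 on all 12 (5.43%). The 649 probes named for mouse lincRNAs gave similar shares, 46.7% on no array, 18.2% on at least 6 and 5.39% on all 12. The 58141 probes with the ASMM10P prefix, which make up most of the array, were on no array in 19.9% of cases and on all 12 in 27.1%. No spot of a human lincRNA-named probe was saturated, and 12 of their spots, on 8 probes, were left out as outliers.

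By array, 147 to 200 of the human lincRNA-named probes were well above background on the controls (13.3% to 18.1%). The counts were 168 on cachexia 1, 438 on cachexia 2, 375 on cachexia 4, and 137, 151 and 162 on cachexia 3, 5 and 6. Cachexia 2 and 4 were therefore the arrays with the most detected probes, above every control, while the other 4 cachexia arrays lay in or near the control range. Over all probes of the array the shares were 48.2% to 57.7% on the controls, 56.4%, 73.3% and 59.8% on cachexia 1, 2 and 4, and 33.5% to 35.2% on cachexia 3, 5 and 6. Cachexia 2 and 4 thus lay above every control here too, cachexia 4 only narrowly. Cachexia 3, 5 and 6 lay below the controls. For the human lincRNA-named probes the shares on cachexia 2 and 4 were 39.7% and 34.0%, against at most 18.1% on the controls. The mouse lincRNA-named probes gave 41.3% and 35.0%, against at most 21.4%. Of the 1104, 208 were detected on cachexia 2, cachexia 4 or both and nowhere else (18.8%). The shares were 17.9% of the mouse lincRNA-named probes and 10.5% of all probes. Another 14 were detected only on cachexia 3, 5 or 6 (1.27%, beside 1.54% and 0.557%). On cachexia 2 and 4 the negative-control spots moved the same way: 16 of 279 and 14 of 282 were well above background, against 2 of 287 on control 3 and 0 on every other array. The part of this in the higher counts was not tested. Measured instead against the brightest of the 15 negative-control probes on the same array, 304 to 414 human lincRNA-named probes were brighter on the controls and 324 to 432 on the cachexia arrays, and the groups overlapped.

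Detection on only one side was frequent, but never complete. Of the 1104, 252 were well above background on at least 1 cachexia array and on no control, and 208 of these were the probes seen only on cachexia 2 or 4. The 252 are 22.8% of the 1104, beside 22.5% of the mouse lincRNA-named probes and 13.3% of all probes. In the other direction, 30 were on at least 1 control and on no cachexia array (2.72%, beside 1.75% of all probes). In all, 88 were well above background on all 6 controls and 78 on all 6 cachexia arrays (7.97% and 7.07%, beside 41.4% and 28.4% of all probes). None (0) was on all arrays of one group and on none of the other. Each of the 183 probes detected on at least 6 arrays was detected on at least 1 control and at least 1 cachexia array. These 183 are the probes tested for a difference between the groups.

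Plus and minus probes were detected equally often. Among the 549 plus probes 91 were tested, and among the 555 minus probes 92 (both 16.6%). Of the 547 numbers with both, 386 had neither probe tested, 141 had one of them and 20 had both. Where 1 probe of a number was the tested one, it was the plus probe 70 times and the minus probe 71 times. Of 56 numbers with exactly 1 probe well above background on all 12 arrays, the partner was on no array in 32, on 1 to 5 arrays in 15 and on 6 to 11 arrays in 9. Among all 1104 probes, 542 (49.1%) were on no array, so the 32 partners on no array say little about the pairs.

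Levels below are log2 processed signals relative to the 75th percentile of the same array, so that 0 is a signal equal to that percentile. How bright a probe is also depends on its sequence, so levels are compared between arrays and not between probes. The 6 probes with the highest mean level among those on all 12 arrays were humanlincRNA1739+_P1, 2438+_P1, 1016-_P1, 1945-_P1, 0635+_P1 and 1382-_P1, here shortened after the first by leaving out humanlincRNA.

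Probe 2438+_P1 was the steadiest of these 6 in control fat. It measured 5.64 to 6.31 on the controls (median 5.94), 6.44, 6.31 and 5.23 on cachexia 1, 2 and 4, and 4.70 to 4.84 on cachexia 3, 5 and 6. Cachexia 1 and, narrowly, cachexia 2 lay above every control, and the other replicates lay below all of them. The means were 5.98 ± 0.26 (SD, n = 6) and 5.68 ± 0.82 (n = 4), a difference of -0.29 ± 0.39 (SE, limma's adjusted p = 0.661). Its partner with the minus sign was well above background on 6 arrays only.

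Probe 1739+_P1 measured 4.44 to 7.64 on the controls, with a median of 5.14. It measured 5.91, 8.21 and 6.77 on cachexia 1, 2 and 4 and 11.04 to 11.15 on cachexia 3, 5 and 6. Control 4, at 7.64, lay above 2 of the 4 cachexia replicates, so the groups overlapped. The means were 5.41 ± 1.13 and 8.0 ± 2.28, a difference of 2.59 ± 0.94 (limma's adjusted p = 0.389). Before scaling, the signal was 2209 to 4324 on controls 1, 2, 3, 5 and 6 and 45640 on control 4. It was 12260, 119100 and 10230 on cachexia 1, 2 and 4 and 53410 to 62380 on cachexia 3, 5 and 6. Unscaled, cachexia 1 and 4 thus lay below control 4.

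Probes 2397+_P1 and 1516-_P1 were also high on control 4 and highest on the arrays scanned with cachexia 6. Probe 2397+_P1 was 7.83 on control 4 and 5.51 to 6.01 on the other controls. It was 6.31, 8.18 and 7.41 on cachexia 1, 2 and 4 and 11.44 and 11.59 on cachexia 5 and 6, its spot on cachexia 3 having been left out as an outlier. Probe 1516-_P1 was 3.08 on control 4, 0.78 to 1.5 on the other controls, 1.36, 3.23 and 3.29 on cachexia 1, 2 and 4 and 8.57 to 9.04 on cachexia 3, 5 and 6. In each of these 3 probes control 4 was the highest control, and those of cachexia 3, 5 and 6 with a usable spot were the highest arrays of all. The differences were 2.29 ± 0.88 for 2397+_P1 and 2.76 ± 1.18 for 1516-_P1 (limma's adjusted p = 0.389 for each).

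Probe 1016-_P1 showed another pattern, in which the controls differed among themselves as much as the groups did. It measured 6.62, 6.81 and 6.80 on controls 1, 5 and 6, 4.33 on control 4, and 1.66 and 1.49 on controls 2 and 3. On the cachexia arrays it measured 3.86, 4.86 and 8.78 (cachexia 1, 2 and 4) and 7.59 to 7.74 (cachexia 3, 5 and 6). Cachexia 4 and the averaged replicate were above every control, and cachexia 1 and 2 lay inside the control range. Before scaling, the signal was 312.6 to 11320 on the controls and 2974, 11630 and 41420 on cachexia 1, 2 and 4. It was 5050 to 5817 on cachexia 3, 5 and 6, which unscaled lay inside the control range. The difference of 1.68 ± 1.37 did not pass (limma's adjusted p = 0.502). The plus probe of the same number was -2.09 to -1.13 on the controls, -2.52, -1.72 and 0.06 on cachexia 1, 2 and 4 and 0.33 to 0.63 on cachexia 3, 5 and 6. It did not follow its partner in the controls, where controls 2 and 3 were at -1.82 and -1.13.

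Probes 0635+_P1 and 1382-_P1 repeated the order of 1016-_P1. On controls 2 and 3 they measured 1.73 and 1.69, and 1.46 and 1.43. On controls 1, 4, 5 and 6 they ranged from 4.69 to 6.19 and from 3.35 to 4.99. On cachexia 4 they measured 7.98 and 7.45, and in the averaged cachexia 3, 5 and 6 7.14 and 7.34. Cachexia 1 and 2 stayed inside the control range for both, at 3.56 and 4.78 and at 2.73 and 4.00. Before scaling, cachexia 3, 5 and 6 were at 3551 to 3892 for 0635+_P1, inside its control range (357.9 to 7419). For 1382-_P1 they were at 4126 to 4531, above its controls (299.1 to 3245). Probe 1945-_P1 was 2.93 to 5.97 on the controls, 3.42, 3.77 and 7.51 on cachexia 1, 2 and 4, and 7.87 to 8.23 on cachexia 3, 5 and 6. The differences were 1.53 ± 1.17, 1.93 ± 1.1 and 1.19 ± 1.02 for 0635+_P1, 1382-_P1 and 1945-_P1, none past the threshold (limma's adjusted p 0.483, 0.414 and 0.519).

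The gap between controls 2 and 3 and the other controls was common among the human lincRNA-named probes and among the mouse lincRNA-named ones. It was looked for after the probes above had been seen, and is given without a test. In 38 of the 183 tested (20.8%), controls 2 and 3 averaged more than 2 (log2) below controls 1, 4, 5 and 6. Such a gap was found in 24 of the 118 tested mouse lincRNA-named probes and in 5.78% of all 32583 tested probes. In the other direction, 1 of the 183 had controls 2 and 3 higher by more than 2, as had 423 of the 32583. The median of this difference was -0.47 over the 183 and 0.15 over all tested probes. In 65 of the 183 both controls 2 and 3 were below all of controls 1, 4, 5 and 6, against 19.2% of all tested probes, and in 21 both were above them, against 20.4%.

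These 38 included 4 of the 6 brightest probes and 4 of the 6 largest differences described below. In 29 of the 38, both cachexia 4 and the averaged cachexia 3, 5 and 6 were above every control, while cachexia 1 was above every control in 0 and cachexia 2 in 1. Both were also above in 106 of all 183 (57.9%), in 69 of the 118 tested mouse lincRNA-named probes (58.5%) and in 27.3% of all tested probes. Among probes with such a gap, both were above in 20 of the 24 mouse lincRNA-named ones (83.3%) and in 60.3% of the 1884 on the array. That order was thus not limited to the 38, nor to the human lincRNA-named probes. Only 1 of the 38 had an unadjusted p under 0.05 between the groups. The widest gap was that of 2316-_P1, which measured 2.50 to 2.60 on controls 1, 5 and 6, -1.01 on control 4, and -4.93 and -4.75 on controls 2 and 3, where it was not well above background. This probe also had the largest group difference of the 183, 3.12 ± 1.95 (limma's adjusted p = 0.432), at -1.09, 0.78 and 5.94 on cachexia 1, 2 and 4 and 4.78 to 4.97 on cachexia 3, 5 and 6. It was picked after its values were seen.

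Between cachexia and control fat, limma's moderated test called 0 of the 183 probes after Benjamini-Hochberg adjustment over all 32583 tested probes, with 0.0% of all tested probes called. The smallest adjusted p among the 183 was 0.389. At an unadjusted p under 0.05 there were 23, or 12.6%, beside 12.8% of all tested probes, so their number was that of the array as a whole. They were divided unevenly: 21 were higher in cachexia, beside 6.21% of all tested probes, and 2 were lower, beside 6.58%. With each of the 12 arrays as a replicate, again 0 of the 183 were called, beside 0.0307% of all tested probes. At an unadjusted p under 0.05 there were then 78, beside 39.1%, of which 73 were higher and 5 lower, beside 18.8% and 20.3%.

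The median difference over the 183 was 0.84 (quartiles 0.39 and 1.32), with 165 above 0, beside a median of -0.00083 and 50% above 0 over all tested probes. Over the 60 probes well above background on all 12 arrays the median was 0.88, with 55 above 0 (91.7%), beside 0.09 and 53.8% for the 15987 probes of the array that met the same condition. Over the 379 probes detected on 1 to 5 arrays it was 0.75, and over the 542 detected on none it was 0.08, with 370 above 0 (68.3%), beside 0.11 and 72.1% for all 12873 probes detected on no array. For the 118 tested probes named for mouse lincRNAs it was 0.75, so the shift was not particular to the human-named ones.

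The shift was uneven across the cachexia replicates. The median difference of the 183 from the control mean was -0.30 in cachexia 1, 0.31 in cachexia 2, 1.44 in cachexia 4 and 1.76 in the averaged cachexia 3, 5 and 6. The same measure for any 1 control against the remaining 5 was -0.40 to 0.33, so cachexia 1 and 2 were inside the spread of the controls and the other replicates were outside it. In cachexia 4, 133 of the 183 were above every control and 6 below, beside 33.6% and 34.6% of all tested probes, and in the averaged cachexia 3, 5 and 6 121 were above and 12 below, beside 34.1% and 38.4%. In cachexia 2 it was 53 above and 7 below, beside 21.1% and 12.4%, and in cachexia 1 it was 8 above, beside 16.9%. In cachexia 1, 32 were below every control, beside 12%. Cachexia 1 is the one cachexia array scanned on the day of the controls. A fit within that day gave a median of -0.30 and 4 probes at an unadjusted p under 0.05, beside 4.59% of all tested probes, of which 1 was higher (beside 3.17%) and 3 lower (beside 1.41%). Against controls 1, 4, 5 and 6 alone, which share its scan time, there were 25, beside 6.25%, of which 1 was higher (beside 3.04%) and 24 lower (beside 3.2%), and limma called 0 in either fit. In both fits the cachexia side is a single array, assumed to vary as the controls do, so these counts describe cachexia 1 and not the group. Scan day and group cannot be told apart for the other cachexia replicates.

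Probes at background moved with the scaling. The 542 probes detected on no array differed from the control mean by a median of -0.49 in cachexia 1, -1.46 in cachexia 2, 0.07 in cachexia 4 and 1.95 in the averaged cachexia 3, 5 and 6. The median level of the 15 negative-control probes was -5.87 to -4.91 on the controls, -5.74, -6.71 and -5.15 on cachexia 1, 2 and 4, and -3.34 to -3.22 on cachexia 3, 5 and 6. In the averaged replicate the shift of the undetected probes was thus as large as that of the tested ones, and in cachexia 4 it was near 0. For the 60 probes on all 12 arrays the unscaled median signal was 58.8 to 169.2 on the controls, 145.8, 327.4 and 303.7 on cachexia 1, 2 and 4, and 64.0 to 78.5 on cachexia 3, 5 and 6. Unscaled, these 3 arrays lay inside the control range. How much of the shift came with the scaling was not tested.

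The 6 largest differences among probes on all 12 arrays were those of 1516-_P1 and 1739+_P1, given above, and of 0518+_P1 (2.01 ± 1.12), 0469-_P1 (1.94 ± 1.21), 1382-_P1 (1.93 ± 1.1) and 0566+_P1 (1.90 ± 1.25). None passed (limma's adjusted p 0.389 to 0.447). Of the 6, all but 1739+_P1 turned negative with slide or scan day as a block, where cachexia 1 alone is compared with controls: 0518+_P1 was -1.42 by slide, 0469-_P1 -2.17, 1382-_P1 -1.72, 0566+_P1 -2.37 and 1516-_P1 -0.098. Probe 0518+_P1 measured -0.04 and 0.10 on controls 2 and 3 and 3.10 to 4.62 on the others. It measured 2.43, 3.56 and 6.51 on cachexia 1, 2 and 4 and 5.69 to 6.03 on cachexia 3, 5 and 6. Probe 0469-_P1 was -0.61 and -0.58 on controls 2 and 3, 1.74 to 3.56 on the others, 0.66, 2.28 and 5.82 on cachexia 1, 2 and 4 and 5.72 to 5.86 on cachexia 3, 5 and 6. Both had cachexia 4, 3, 5 and 6 above every control and cachexia 1 and 2 within the control range. Probe 0566+_P1 had the same order, from -2.59 on control 3 to 4.06 on cachexia 4. Before scaling, cachexia 3, 5 and 6 were at 1415 to 1665 for 0518+_P1, inside its control range (118.9 to 2509). For 0469-_P1 they were at 1338 to 1596, above its controls (74.2 to 1201). For 0566+_P1 they were at 325.3 to 376.1, against 18.5 to 334.6 on the controls.

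Only 5 of the 60 probes on all 12 arrays had a value below 0, and they were small against their spread. They were 1398-_P1 (-0.75 ± 0.43), 2242+_P1 (-0.61 ± 0.46), 2350-_P1 (-0.39 ± 1.02), 2438+_P1 (-0.29 ± 0.39) and 1396+_P1 (-0.29 ± 0.38), with limma's adjusted p from 0.416 to 0.826. Probe 1398-_P1 measured -0.56 to 1.54 on the controls (median 0.70), -0.54, -0.36 and 0.16 on cachexia 1, 2 and 4 and 0.10 to 0.44 on cachexia 3, 5 and 6. All its cachexia arrays lay inside the control range. Probe 2242+_P1 was 0.02 to 1.97 on the controls, 0.77 and 0.67 on cachexia 1 and 2, and below every control on cachexia 4 (-0.45) and in the averaged replicate (-0.57). Probe 2350-_P1 ran from -2.81 to 1.67 on the controls, with controls 2 and 3 lowest, and from -2.70 to 1.42 on the cachexia arrays. Probe 1396+_P1 was -0.97 to 0.13 on the controls and -1.42 to 0.18 on the cachexia arrays.

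Just 1 of the 183 had groups that did not overlap over all 12 arrays, beside 0.973% of all tested probes with every cachexia array above every control, and 0 had every cachexia array below them, beside 1.12%. It was 1145+_P1, the tightest of the named probes in control fat. It measured 1.97, 2.31, 2.22, 2.22, 2.29 and 2.15 on controls 1 to 6, 2.37, 2.38 and 2.97 on cachexia 1, 2 and 4, and 3.95, 3.93 and 4.30 on cachexia 3, 5 and 6. Cachexia 1 and 2 were above the highest control by less than 0.1, and the rest of the difference came from the other replicates. Before scaling, the signal was 415.5 to 1069 on the controls and 1055, 2090 and 736.4 on cachexia 1, 2 and 4. It was 392, 398.9 and 541.7 on cachexia 3, 5 and 6, so the groups were apart only on the scaled levels. The means were 2.19 ± 0.12 and 2.94 ± 0.79, a difference of 0.75 ± 0.36 (limma's adjusted p = 0.397).

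With cachexia 3, 5 and 6 averaged, 3 more probes had all 4 cachexia replicates above every control, which makes 4 of the 183, beside 1.18% of all tested probes. In the other direction there were 0, beside 1.28%. Of the 3, 0712-_P1 and 2381+_P1 are named after their values were seen. Probe 2163+_P1 was 3.21 to 3.86 on the controls, 3.96, 4.00 and 3.92 on cachexia 1, 2 and 4, and 4.08, 4.26 and 3.78 on cachexia 3, 5 and 6. It was the most even of the 22 named probes across the 4 cachexia replicates, with an SD of 0.05. That SD uses the average of cachexia 3, 5 and 6, and cachexia 6 alone lay below the highest control. Before scaling, cachexia 3, 5 and 6 were at 376.1 to 499.5, below every control (799.6 to 3340). The difference of 2163+_P1 was 0.55 ± 0.27 (limma's adjusted p = 0.397). Its value within the shared scan day, 0.54, was close to the whole. Its minus partner, also on all 12 arrays, was -0.89 to 0.62 on the controls and -0.64 to 0.92 on the cachexia arrays, with a difference of 0.40 ± 0.41.

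Probe 0712-_P1 had the smallest unadjusted p of the 183 (limma's adjusted p = 0.389). It was -2.98 to -2.37 on the controls, and -2.06, -0.73 and -1.31 on cachexia 1, 2 and 4. Cachexia 3, 5 and 6, so alike in general, measured -2.68, -0.78 and 1.44 there, and cachexia 3 lay inside the control range. Its difference of 1.41 ± 0.35 therefore rests on an average over 3 unlike values. Probe 2381+_P1 was -4.10 to -2.73 on the controls, where 2 arrays were well above background, and -2.57, -1.90 and -2.12 on cachexia 1, 2 and 4. It also varied among cachexia 3, 5 and 6 (-1.73, -3.00 and -0.97), and its difference was 1.09 ± 0.35 (limma's adjusted p = 0.389).

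The 2 probes lower at an unadjusted p under 0.05 were 0717-_P1 and 1468+_P1. Probe 0717-_P1 was -2.60 to -1.02 on the controls, -2.37, -2.36 and -4.33 on cachexia 1, 2 and 4, and -3.59 to -3.26 on cachexia 3, 5 and 6. Probe 1468+_P1 was -2.56 to -1.71 on the controls, -2.38, -2.29 and -4.70 on cachexia 1, 2 and 4, and -3.92 to -2.53 on cachexia 3, 5 and 6. Both were well above background on all 6 controls and on 2 cachexia arrays. In both, cachexia 1 and 2 lay inside the control range. The differences were -1.26 ± 0.49 and -1.07 ± 0.47 (limma's adjusted p 0.389 and 0.390).

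In the 20 numbers with both probes tested, the plus and minus probes had group differences of the same sign in 17 (both above 0 in 16 and both below 0 in 1) and of opposite sign in 3. Among tested probes 165 of 183 were above 0, so like signs say little about the pairs. The pairs with the highest mean levels were 2397, 1016, 2163 and 2246. Probe 2246+_P1 was 2.37 to 2.92 on the controls, 2.80, 2.91 and 3.45 on cachexia 1, 2 and 4 and 4.07 to 4.38 on cachexia 3, 5 and 6, a difference of 0.71 ± 0.34 (limma's adjusted p = 0.397). Its minus partner was usable on 5 controls and on cachexia 1 and 4 only, the other spots having been left out as outliers, at -0.21 to 0.50 on the controls and 0.40 and 1.68 on the 2 cachexia arrays. Probe 2397-_P1 was -2.56 to -1.42 on the controls and -1.87 to -0.68 on the cachexia arrays, a difference of 0.69 ± 0.33, and did not show the height of its plus partner in cachexia 3, 5 and 6.

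The tested human lincRNA-named probes varied more between cachexia than between control replicates. The median SD of a probe was 0.68 over the 6 controls and 1.15 over the 4 cachexia replicates, and 151 of the 183 (82.5%) had the larger SD in cachexia fat. Over all tested probes the medians were 0.56 and 0.98, with the larger SD in cachexia for 76.0%, and over the mouse lincRNA-named ones the share was 83.9%. The wider spread in cachexia was therefore common to the array, and the cachexia arrays, unlike the controls, came from 3 scan days. All 4 cachexia replicates were above the control mean in 37 probes, 3 of them in 72, 2 in 63, 1 in 6 and 0 in 5. These counts are given without the same counts over all tested probes, so they show nothing particular to the human lincRNA-named ones.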

How the data were processed

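The members and lists were chosen with earlier results of these data known. Ribosomal RNA was removed and the remainder amplified with random primers and labelled with Cy3, per the labels' protocols. The deposited spot intensities were read by the authors with Agilent Feature Extraction 11.0.1.1, per the file headers and the submitters' processing notes, which corrected background within an array and did not scale between arrays. Its deposited flags gave detection and outliers. The authors' series values are on a log2 scale, and how they were scaled is not given here.

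Outlier spots were left out, spots of a probe averaged, and log2 processed signals reduced by each array's 75th percentile. Probes well above background on at least 6 of 12 arrays (32583 of 60915) were fitted with limma 3.58.1 under R 4.3.3 (two-sided, moderated by eBayes, Benjamini-Hochberg, threshold 0.05). Differences are cachexia minus control. The fit was first tried on simulated data. Arrays with one scan time were taken as a slide. Named probes were, among those on all 12 arrays, the 6 brightest and the 6 largest differences each way, then the 4 brightest pairs and any probe called or with groups apart. A part of the rule for probes detected in one whole group only named 0. Alternatives were other scalings, filters, background (normexp, on the median signal) and batches, and replicates left out. Samples are labelled as separate mice, and the number of arrays limits the precision.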

Additional observations from a re-analysis of the deposited data

Results flagged for a closer look

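In 3 of the named probes 1 control array lay far from the other 5, by a gap of more than 0.625 of the group's range. Each time it was control 4. Probe humanlincRNA1739+_P1 measured 7.64 there against 4.44 to 5.25 on the other controls, humanlincRNA2397+_P1 measured 7.83 against 5.51 to 6.01, and humanlincRNA1516-_P1 measured 3.08 against 0.78 to 1.5. On the scaled levels the same 3 probes were highest on cachexia 3, 5 and 6, with no usable spot for 2397+_P1 on cachexia 3. Of 47 groups of values examined 3 showed such a gap, and chance gives about 1 in 20. The 75th percentile signal of control 4, 229.2, was also the highest among the controls.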

How the results depend on the processing

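None of the 183 tested human lincRNA-named probes (0) passed limma's test in any of the 24 alternatives, and over all probes 10 passed with 12 separate arrays and 0 in the others. Their median difference of 0.84 turned to -0.41 in the fits by slide (block, or slide 2 alone) and to -0.30 in those by scan day (block, or day 1 alone), which compare cachexia 1 alone with controls, and 0.48 to 1.18 with 1 replicate left out (1.18 without cachexia 1, 0.48 without cachexia 4, 0.54 without cachexia 3, 5 and 6). It was 0.63 without cachexia 2 and 4, an alternative added after seeing the data, 0.26 with normexp, 0.35 without a filter on dim probes, and 0.75 to 0.92 with quantile normalization, the authors' series values or another percentile. The quantile and series scalings moved the median of all tested probes to -0.12. The count of 23 at an unadjusted p under 0.05 became 78 with 12 separate arrays, 76 with the replicate block on 12 arrays, 80 without a filter on dim probes (1104 tested), 9 over probes on all 12 arrays (60 tested), 11 with normexp, 7 and 1 with a block for slide and for scan day, 4 within scan day 1, 8 without cachexia 2 and 4, and 12 to 82 with 1 replicate left out (82 without cachexia 1, 12 without cachexia 4, 14 without cachexia 3, 5 and 6 or control 3, 15 without control 2). The cause was not tested.

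The 183 detected became 351 by signal above the brightest negative-control probe, 163 without cachexia 2 and 4 and 160 to 178 with 1 array left out. Replicate numbers pair nothing here: same-numbered arrays correlated at -0.52 to 0.44, and the replicate block moved the count of 10 for all probes with 12 separate arrays to 0.

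Of 525 values of the 22 named probes under alternatives, 52 changed sign, 46 of them in the batch fits, and none passed (adjusted p 0.0707 to 1.00). By slide, then by scan day, the values were -2.17 and -1.03 for 0469-_P1, -1.42 and -0.15 for 0518+_P1, -2.37 and -1.30 for 0566+_P1, -2.09 and -0.78 for 0635+_P1, -0.91 and -0.96 for 1016+_P1, -2.27 and -0.75 for 1016-_P1, -1.72 and -0.72 for 1382-_P1, -0.098 and -0.069 for 1516-_P1, -1.76 and -1.07 for 1945-_P1, -0.58 and -0.31 for 2163-_P1, and 0.55 and 0.46 for 2438+_P1. Probe 2242+_P1 was 0.059 by scan day, 2438+_P1 0.017 without cachexia 3, 5 and 6, and 2350-_P1 0.34 with 12 separate arrays, with and without the replicate block, and 0.085 to 0.14 without control 6, cachexia 1 or cachexia 2 (-0.81 to 0.14 over all replicates left out in turn).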
